A study of Mus musculus with 9 samples.

Results

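The genes described here are 10 components of ectodysplasin signalling and of the NF-kappaB response that it feeds: the ligand gene Eda, the receptor genes Edar, Eda2r and Tnfrsf19, the adaptor genes Edaradd and Traf6, and the response and feedback genes Nfkbia, Tnfaip3, Nfkbiz and Relb. They were picked by gene symbol for their known roles, but with earlier results of these data known. All 10 were found among the 41586 genes named in the authors' annotation of the array, in 11 of the 39601 transcript clusters that carry a gene symbol. A transcript cluster is the set of probes that reads the transcripts of a locus, and for Tnfrsf19, which has 2 clusters, the one with the higher mean signal was used.

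Total RNA was hybridised to 9 Affymetrix Mouse Transcriptome Arrays, 3 for each of 3 kinds of mouse cells. The adult samples were living, GFP-positive cells sorted from Sox2-GFP mice of postnatal day 30, from the labial cervical loop. That loop is the epithelial stem cell niche at the base of the ever-growing mouse incisor. The embryo samples came by the same kind of sort from the epithelium of E14.5 incisors, again of Sox2-GFP mice. Every adult and embryo sample pooled several animals, and the green fluorescence reports Sox2, a transcription factor of epithelial and pluripotent stem cells. The mESC samples were purchased mouse embryonic stem cells, which were not sorted for the fluorescence according to the labels. The titles call the mESC samples biological replicates, as they do the other samples, but nothing in the labels says that these were separate cultures. The spread among the mESC samples may therefore be technical. A p-value against mESC rests on a spread estimated from all 9 arrays together, and it may not cover variation between separate mESC cultures. The labels name no other genotype, strain or treatment.

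Ectodysplasin is a trimeric ligand of the tumour necrosis factor (TNF) family that is shed from the cell surface by furin. Its receptor EDAR binds the adaptor EDARADD, which engages TRAF6 and the TAB and TAK1 proteins, and these activate the IKK kinases so that NF-kappaB enters the nucleus. Mice that lack Eda, Edar or Edaradd have malformed or missing teeth, hair and sweat glands, and in the tooth germ Edar is known from the enamel knot, a signalling centre of the epithelium. NF-kappaB switches on several of its own brakes: Nfkbia encodes the inhibitor that holds NF-kappaB in the cytoplasm, and Tnfaip3 encodes A20, an enzyme that edits ubiquitin chains on the signalling proteins.

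The promoters of Nfkbia and Tnfaip3 are shown because both genes are textbook NF-kappaB targets and because theirs alone held NF-kappaB patterns among the members' windows. RefSeq promoter windows (mouse assembly GRCm38.p6, the 250 bases before an annotated start) were available for 8 of the 10 genes, in 10 windows. Nfkbiz and Relb had no window. The pattern GGGANNTTCC, searched on both strands, stood in 397 of the 32851 windows of all genes (1.21%). The NF-kappaB consensus, which overlaps it, stood in 1281 (3.9%). The sequences run 5′ to 3′ along the gene and capitals mark the matches. The Nfkbia window lies on the minus strand at chr12:55492648-55492897 and the Tnfaip3 window on the minus strand at chr10:19015411-19015660. A second Tnfaip3 window, at chr10:19011964-19012213, has 0 matches to either pattern.
Nfkbia: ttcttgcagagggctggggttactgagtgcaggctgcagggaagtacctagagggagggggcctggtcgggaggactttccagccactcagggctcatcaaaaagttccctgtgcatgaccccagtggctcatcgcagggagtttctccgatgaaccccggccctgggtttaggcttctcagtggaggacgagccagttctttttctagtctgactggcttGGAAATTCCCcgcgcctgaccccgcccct
Tnfaip3: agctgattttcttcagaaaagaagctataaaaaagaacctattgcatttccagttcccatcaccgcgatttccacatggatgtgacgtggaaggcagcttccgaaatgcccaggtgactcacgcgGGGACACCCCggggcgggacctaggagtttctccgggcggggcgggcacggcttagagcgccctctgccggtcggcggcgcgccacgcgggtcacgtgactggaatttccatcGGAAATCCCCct
The Nfkbia match reads GGGAATTTCC on the opposite strand, 29 to 20 bases before the start, and satisfies both patterns. Tnfaip3 has 2 matches to the consensus and 0 to GGGANNTTCC: GGGACACCCC on the gene's strand, 125 to 116 bases before the start, and GGGGATTTCC on the opposite strand, 12 to 3 bases before it. A match is a run of letters and does not show that a protein binds there.

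All values below are log2 signals as the authors normalised them, so a difference of 1 is a factor of 2, and levels are compared between groups and never between genes. The 5222 negative-control probe sets of the array had a median of 4.81 and a 95th percentile of 9.27. Measured against its own group's controls, a member's mean exceeded the 95th percentile for 2 genes in adult and 2 in embryo cells, Edaradd and Tnfrsf19 in both, and for 0 genes in mESC. The mean of 1 gene in adult cells, Eda2r, lay within 1 log2 unit of that group's control median. The same held for 3 genes in embryo cells (Eda2r, Nfkbiz and Tnfaip3) and 4 in mESC (Edar, Tnfrsf19, Nfkbiz and Tnfaip3). Such levels are not reliably above background, and a difference that involves one may understate the change. In bulk RNA, fewer cells that express a gene cannot be told apart from less of its RNA per cell.

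Within groups the arrays correlated at 0.99 to 0.996 across clusters. For 10 epithelial marker genes the mean log2 signal was 10.88, 11.99 and 11.92 on adult replicates 1 to 3, 11.69, 11.76 and 12.2 on the embryo and 8.51, 8.6 and 8.82 on the mESC arrays, and 6 of the 10 were called higher in each dental group than in mESC, beside 1 called lower in adult and 2 in embryo cells. All 10 had means above the control median in each group, mESC included. Among them the keratin genes Krt5 and Krt14 averaged 16.32 and 15.06 in adult, 15.77 and 15.41 in embryo and 5.64 and 6.35 in mESC samples. The adult sort also carried markers of other cells. For 12 macrophage and leukocyte genes the mean log2 signal was 8.97, 8.72 and 8.94 on adult replicates 1 to 3, against 5.53, 4.78 and 4.9 on the embryo and 5.43, 5.47 and 5.55 on the mESC arrays, and 11 of the 12 were called higher in adult than in embryo cells. For 9 mesenchyme genes it was 12.04, 10.06 and 9.64 in adult, 8.43, 7.13 and 6.77 in embryo and 6.21, 6.54 and 7.04 in mESC samples, with 5 of 9 called higher in adult than in embryo cells. For 11 immediate early genes, which also respond when tissue is digested, it was 8.64, 7.98 and 8.24 in adult, 8.54, 8.37 and 6.14 in embryo and 6.16, 6.31 and 6.43 in mESC samples. Adult replicate 1 thus had the highest mesenchyme level and embryo replicate 3 stood far below the other embryo samples in immediate early genes, and differences of the members that change their call without these samples are given without them as well. Sox2 itself averaged 9.83 in adult and 11.86 in embryo samples and was called lower in adult cells (-2.03 ± 0.42, limma's adjusted p = 0.015). The part of these other cells, or of the Sox2 level, in any result was not tested.

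**Figure D1:**
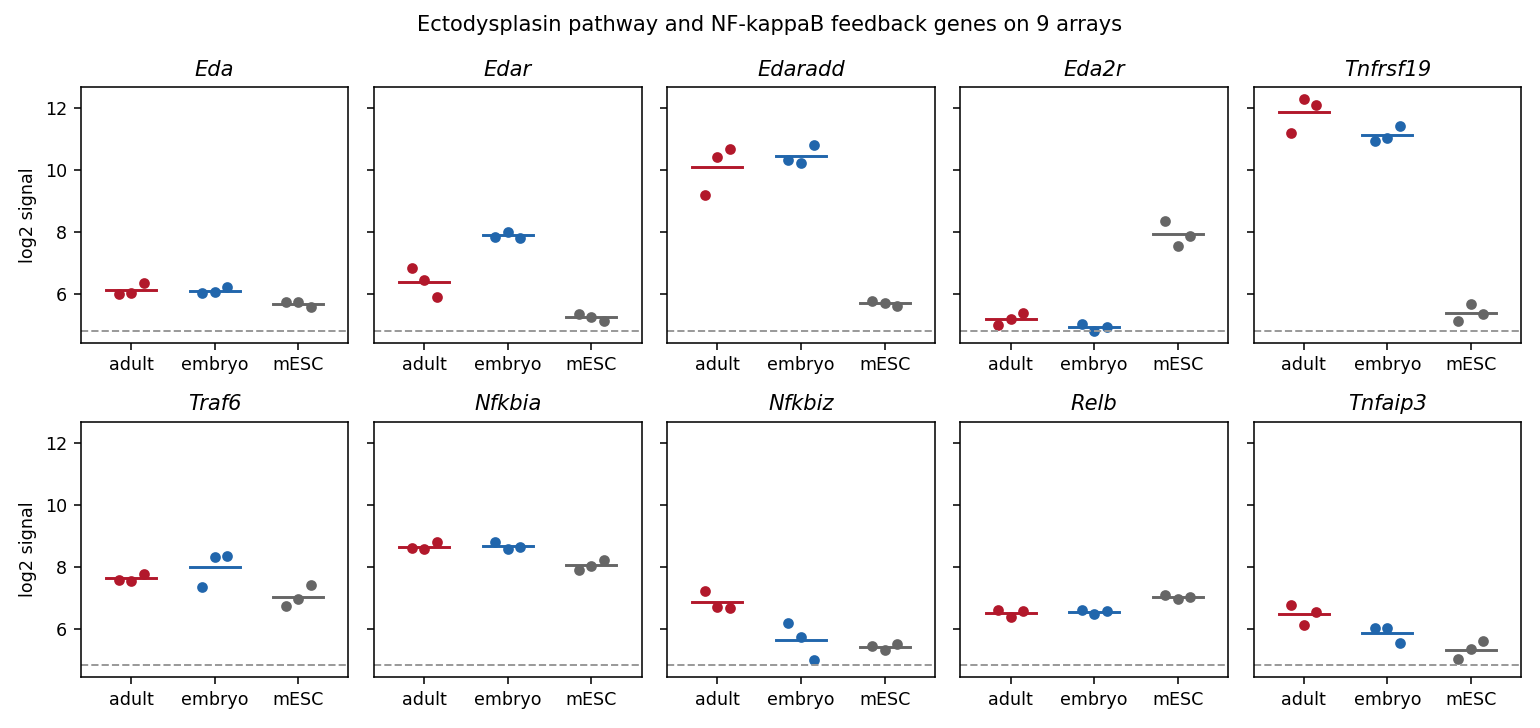
Log2 signal of the 10 genes on each of the 9 arrays, with 3 points per group in replicate order and a bar at the group mean; the dashed line is the median of the negative-control probe sets over all arrays, 4.81. Edar stands highest in embryo cells, Eda2r in mESC, and Edaradd and Tnfrsf19 stand far above mESC in both dental groups.

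The comparison of adult with embryo cells addresses how Sox2-GFP cells of the mature incisor differ from those of the forming tooth. Adult cells came from the labial cervical loop and embryo cells from the incisor epithelium, so age and region cannot be told apart. Wording such as "between the ages" or "with age" therefore means adult against embryo samples only. Between adult and embryo cells 2 of the 10 members were called. Edar fell, to a level 2.82-fold lower in adult cells, and Nfkbiz rose 2.36-fold. The other 8 genes did not pass the test, which was limma's moderated test with Benjamini-Hochberg adjustment over all 39601 clusters, where a call needs an adjusted p under 0.05 together with a log2 difference of at least 1. One of 10 members was called higher against 2.83% of all clusters, and 1 of 10 lower against 3.59%. The adult and embryo samples did not overlap for 3 of 10 members (Edar, Nfkbiz and Tnfaip3), against 27.8% of all clusters. The median difference of the 10 genes was 0 and that of all clusters -0.01. An unadjusted p under 0.05 by limma was found for 4 of 10 members, beside 10579 of the 39601 clusters.

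Embryo cells against mESC asks what sets embryonic dental cells apart from pluripotent cells. Edar, Edaradd and Tnfrsf19 were called higher in embryo cells, by 6.28-fold, 26.8-fold and 54.2-fold, while Eda2r was called lower, by 8.06-fold. With 3 of 10 called higher and 1 of 10 lower, the members stand beside 4.87% and 6.09% of all clusters. Embryo and mESC samples did not overlap for 7 of 10 members, against 42% of all clusters. The members' median difference was 0.58, and that of all clusters -0.07.

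Adult cells against mESC gave the same kind of comparison for the mature niche. The genes called higher in adult cells were Tnfrsf19 (90.9-fold), Edaradd (21.2-fold), Nfkbiz (2.73-fold), Edar (2.22-fold) and Tnfaip3 (2.21-fold), and Eda2r was called lower (6.7-fold). These are 5 of 10 members higher against 6.86% of all clusters, and 1 of 10 lower against 10.3%. All 10 members had adult and mESC samples that did not overlap, as did 47.5% of all clusters. The median difference was 0.88 for the members and -0.07 for all clusters. The comparisons share samples, since each group enters 2 of them, so their results are not independent.

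**Figure D2:**
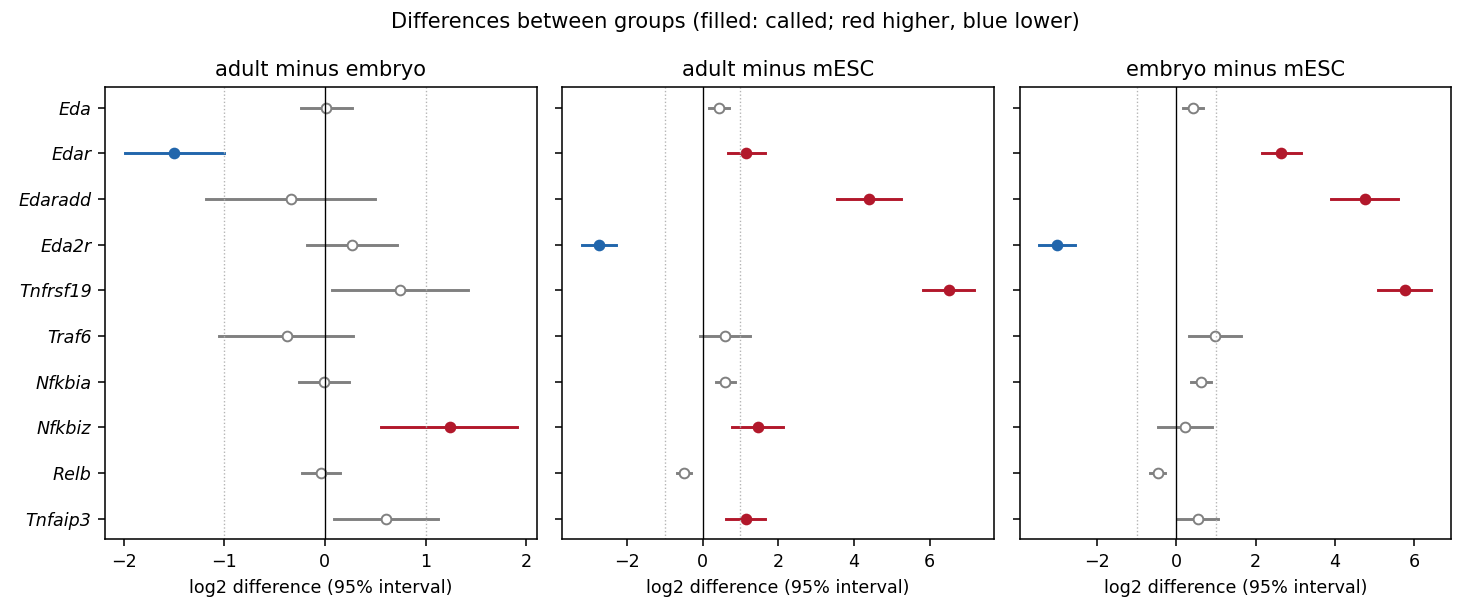
Log2 differences of the 10 genes with 95% intervals of the fit for adult minus embryo, adult minus mESC and embryo minus mESC; filled points passed the test, red higher and blue lower, and dotted lines mark a difference of 1. Edar (lower) and Nfkbiz (higher) are the filled points between adult and embryo cells, and Tnfrsf19 and Edaradd lie farthest to the right against mESC.

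Eda, the ligand gene, lies on chromosome X from 99975589 to 100400762 on the plus strand in the coordinates of the authors' annotation. Its signals were 5.99, 6.03 and 6.35 in adult samples, 6.03, 6.07 and 6.23 in embryo samples, and 5.75, 5.73 and 5.57 in mESC. The dental groups overlapped entirely, and both lay just above mESC. The adult minus embryo difference was 0.01 ± 0.11 (SE of the fit, as for every difference below), with a 95% interval from -0.24 to 0.27 and an adjusted p of 0.972. Against mESC the differences were 0.43 ± 0.11 for embryo cells (adjusted p = 0.0233) and 0.44 ± 0.11 for adult cells (adjusted p = 0.0155), which passed the adjusted p but not the size set for a call.

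Edar, the main receptor of ectodysplasin in teeth and skin appendages, lies on chromosome 10 from 58600788 to 58675696 on the minus strand. It was the member with the clearest difference between the ages. Signals were 6.85, 6.44 and 5.9 in adult samples (6.4 ± 0.48, mean ± SD, n = 3), 7.85, 8.01 and 7.82 in embryo samples (7.89 ± 0.1), and 5.34, 5.27 and 5.12 in mESC (5.24 ± 0.11). Each embryo sample exceeded each adult sample, and each adult sample exceeded each mESC sample. Adult minus embryo was -1.5 ± 0.21 (95% interval -1.99 to -1, adjusted p = 0.00262), embryo minus mESC 2.65 ± 0.21 (adjusted p = 7.62e-05) and adult minus mESC 1.15 ± 0.21 (adjusted p = 0.00357). The order embryo, adult, mESC therefore had both of its steps called. The mESC mean lay within 1 log2 unit of the mESC control median (4.59), so differences from it may be understated.

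The lower adult level of Edar was called under every alternative setting run for it. The column names of a second deposited summary carry 1 of 2 digit strings, which are read here, as an assumption, as an earlier and a later day. What step they would date is not given, and the difference was -1.37 on the earlier day and -1.93 on the later one. The authors' deposited table compares the 2 groups on their own by an analysis of variance. It gives a fold of 2.7 for embryo over adult with an adjusted p of 0.119, so there the gene does not pass. For adult over mESC it lists a fold of 2.22 with an adjusted p of 0.077563, which does not pass either. The step above mESC was less firm: adult minus mESC dropped under the size for a call without adult replicate 1 (0.93, adjusted p = 0.00436), without both that sample and embryo replicate 3 (0.93, adjusted p = 0.00989) and with day as a block (0.85, adjusted p = 0.0158), and was 0.66 on the later day.

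Eda2r encodes a second receptor, which binds the other main splice form of ectodysplasin and is known as a target of p53. It lies on chromosome X from 97333840 to 97377216 on the minus strand. The gene ran opposite to Edar, with 4.99, 5.2 and 5.37 in adult samples, 5.02, 4.8 and 4.94 in embryo samples, and 8.35, 7.56 and 7.88 in mESC. Both dental groups sat near the control median and every mESC sample stood well above them. Relative to mESC the gene fell by 2.74 ± 0.19 on the log2 scale in adult cells (adjusted p = 2.32e-05), and embryo minus mESC was -3.01 ± 0.19 (adjusted p = 2.46e-05). The age difference (adult minus embryo) was 0.27 ± 0.19 (95% interval -0.18 to 0.72, adjusted p = 0.468), and since both levels lie near background this difference has little reach.

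Tnfrsf19, also called Troy, encodes a receptor related to EDAR that is found in epithelia and stem cells and is known to be regulated by Wnt signalling. Its main cluster lies on chromosome 14 from 60963834 to 61046855 on the minus strand. Signals were 11.22, 12.31 and 12.12 in adult samples (11.88 ± 0.58), 10.94, 11.03 and 11.44 in embryo samples (11.14 ± 0.27), and 5.13, 5.66 and 5.34 in mESC (5.38 ± 0.27). This gene had the largest difference from mESC among the 10, at 6.51 ± 0.29 for adult (adjusted p = 2.42e-06) and 5.76 ± 0.29 for embryo cells (adjusted p = 6.94e-06). The mESC level is within 1 log2 unit of background, so both folds may be understated.

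Between the ages, Tnfrsf19 showed 0.75 ± 0.29 for adult minus embryo (95% interval 0.07 to 1.42, adjusted p = 0.145), with adult replicate 1 inside the embryo range. That sample, with the most mesenchyme RNA, had the lowest Tnfrsf19 of the adult group. Without it the difference was 1.08 (adjusted p = 0.0133), and it was 1.02 (adjusted p = 0.0365) after quantile normalisation, both past the test. Without adult replicate 2 it was 0.53 (adjusted p = 0.346), and with the gene's 2 clusters averaged 0.19 (adjusted p = 0.655). The differences within the 2 days were 0.74 and 0.93. A second cluster named Tnfrsf19, annotated as noncoding on the opposite strand from 60965998 to 60966441, was near background, at 4.13, 4.78 and 4.06 in adult, 4.88, 4.77 and 4.44 in embryo and 3.73, 3.77 and 3.55 in mESC samples. It gave -0.37 ± 0.2 for adult minus embryo (adjusted p = 0.302), the opposite sign to the main cluster.

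Edaradd, the adaptor that binds the death domain of EDAR, lies on chromosome 13 from 12471209 to 12520450 on the minus strand. Signals were 9.2, 10.42 and 10.7 in adult samples (10.11 ± 0.8), 10.32, 10.22 and 10.81 in embryo samples (10.45 ± 0.32), and 5.78, 5.72 and 5.61 in mESC (5.7 ± 0.09). Both dental groups were far above mESC, at 4.4 ± 0.36 for adult (adjusted p = 4.87e-05) and 4.75 ± 0.36 for embryo cells (adjusted p = 5.84e-05). Unlike Edar, whose difference was called, the adaptor gave only -0.34 ± 0.36 for adult minus embryo (95% interval -1.18 to 0.5, adjusted p = 0.651). The difference between these 2 genes' changes was not tested. Adult replicate 1 was again the lowest of its group, and without it the adult minus embryo value of Edaradd was 0.11. The authors' deposited table lists a signed fold of -1.17 for embryo over adult, the opposite direction. Its analysis of variance gave an adjusted p of 0.764353.

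Traf6, a ubiquitin ligase shared with interleukin-1 and Toll-like receptor signalling, lies on chromosome 2 from 101678429 to 101702536 on the plus strand. It had 7.56, 7.53 and 7.77 in adult samples, 7.35, 8.32 and 8.34 in embryo samples, and 6.72, 6.95 and 7.42 in mESC. The embryo group was the most spread, and its lowest sample fell among the mESC values. No comparison of Traf6 was called: embryo minus mESC was 0.97 ± 0.29 (adjusted p = 0.0389), just short of the size set, adult minus mESC 0.59 ± 0.29 (adjusted p = 0.154) and adult minus embryo -0.38 ± 0.29 (adjusted p = 0.484). Without embryo replicate 1 embryo minus mESC was 1.3, and without mESC replicate 3 it was 1.17, and both of these were called.

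Among the response genes, Nfkbia lies on chromosome 12 from 55489409 to 55492647 on the minus strand, directly beside the promoter window printed above. The inhibitor gene was level between the dental groups, with 8.6, 8.56 and 8.79 in adult samples, 8.8, 8.56 and 8.63 in embryo samples, and 7.89, 8.04 and 8.21 in mESC. The adult and embryo values interleave and all lie above mESC. Adult minus embryo was -0.01 ± 0.11 with a 95% interval from -0.26 to 0.24 (adjusted p = 0.971). Differences from mESC of 0.6 ± 0.11 for adult (adjusted p = 0.00299) and 0.62 ± 0.11 for embryo cells (adjusted p = 0.00387) passed the adjusted p but not the size.

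Tnfaip3, the A20 gene, lies on chromosome 10 from 19000910 to 19015657 on the minus strand. The printed window, which ends at 19015660, lies almost wholly within this cluster. Signals were 6.76, 6.1 and 6.54 in adult samples (6.47 ± 0.34), 6.01, 6.03 and 5.54 in embryo samples (5.86 ± 0.28), and 5.02, 5.35 and 5.59 in mESC (5.32 ± 0.29). The order was adult, embryo, mESC, but neither single step passed the test: adult minus embryo was 0.61 ± 0.22 (adjusted p = 0.119) without overlap, and embryo minus mESC 0.54 ± 0.22 (adjusted p = 0.112) with overlap. Only the full distance, adult minus mESC, was called (1.15 ± 0.22, adjusted p = 0.00447). Without mESC replicate 1 it stood at 1 (adjusted p = 0.0171), just under the size set for a call before rounding. Without adult replicate 1 it was 1 (adjusted p = 0.015), just over that size, and without both adult replicate 1 and embryo replicate 3 it was 1 (adjusted p = 0.0136) and not called, which with Edar leaves 4 of the 6 members called in adult cells against mESC. On the later day it was 1.22. The embryo and mESC means both lie within 1 log2 unit of their groups' control medians. In the authors' deposited table, the analysis of variance lists a fold of 2.25 for adult over mESC. Its adjusted p is 0.062558, so there the gene does not pass.

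Nfkbiz encodes an atypical nuclear member of the inhibitor family that is induced by interleukin-1 and Toll-like receptor signals and helps NF-kappaB switch on secondary genes. It lies on chromosome 16 from 55811375 to 55838899 on the minus strand. Its signals were 7.21, 6.71 and 6.67 in adult samples (6.86 ± 0.3), 6.19, 5.72 and 4.97 in embryo samples (5.63 ± 0.62), and 5.44, 5.31 and 5.49 in mESC (5.41 ± 0.09). Each adult sample exceeded each embryo and mESC sample, while embryo samples straddled mESC. The embryo and mESC means lay within 1 log2 unit of their groups' control medians (5.01 and 4.59), so differences from them may be understated. Adult minus embryo was 1.24 ± 0.29 (95% interval 0.56 to 1.91, adjusted p = 0.0244), adult minus mESC 1.45 ± 0.29 (adjusted p = 0.00542) and embryo minus mESC 0.21 ± 0.29 (adjusted p = 0.629).

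The call of Nfkbiz in adult over embryo cells was lost under several settings, through a smaller difference, a larger adjusted p or both. Embryo replicate 3, low in immediate early genes, had the lowest value, and adult replicate 1, highest in mesenchyme and immediate early genes, had the highest. The macrophage list was higher in adult samples too (11 of 12 genes called higher than in embryo cells). The part of these lists in the Nfkbiz difference was not tested. Without embryo replicate 3 the difference was 0.91 (adjusted p = 0.0334), without adult replicate 1 it was 1.06 (adjusted p = 0.073), without embryo replicate 2 it was 1.28 (adjusted p = 0.0657), and without both adult replicate 1 and embryo replicate 3 it was 0.73 (adjusted p = 0.041). None of these passed both limits. A fit of only the adult and embryo arrays gave an adjusted p of 0.0906 and day as a block one of 0.0591, while the values within the days were 1.24 and 1.09. The authors' deposited table lists a signed fold of -2.04 for embryo over adult with an adjusted p of 0.289574.

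**Figure D3:**
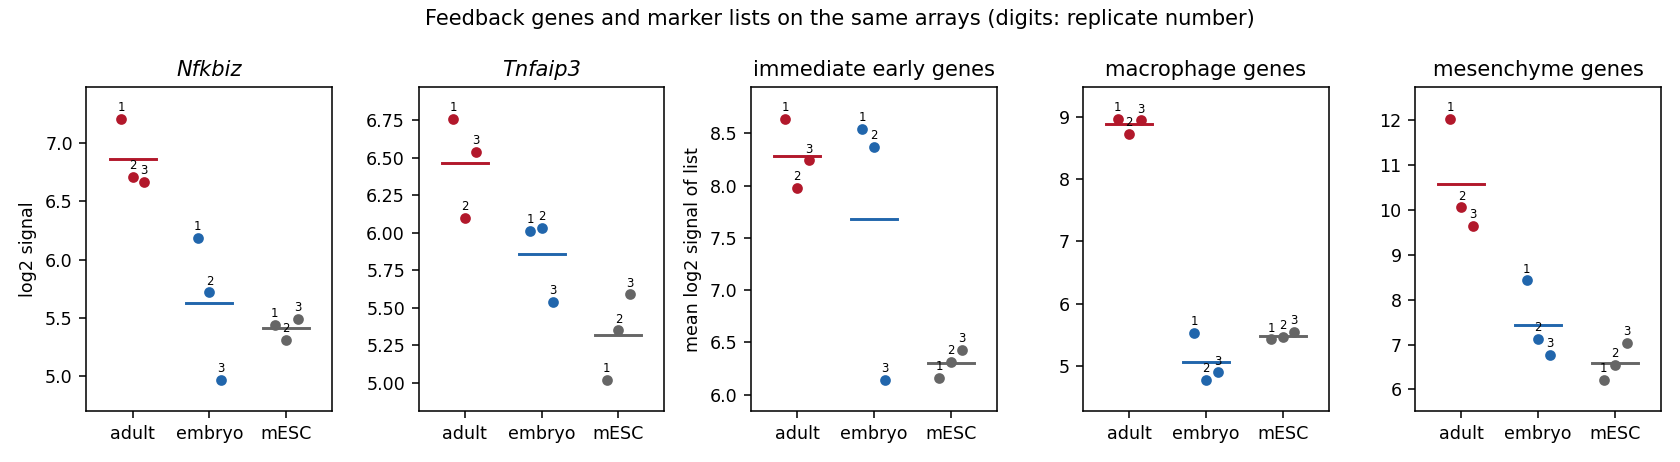
Nfkbiz and Tnfaip3 (log2 signal) beside the mean log2 signal of the immediate early, macrophage and mesenchyme lists on the same 9 arrays; digits give the replicate, bars the group mean, and each panel has its own axis. Embryo replicate 3 is lowest of its group for Nfkbiz (4.97) and for the immediate early list (6.14), and adult replicate 1 is highest for Nfkbiz (7.21) and for the mesenchyme list (12.04).

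Relb, a subunit of the alternative NF-kappaB dimer and itself an NF-kappaB target, lies on chromosome 7 from 19606217 to 19629438 on the minus strand. Its signals were 6.61, 6.36 and 6.57 in adult samples, 6.61, 6.46 and 6.58 in embryo samples, and 7.07, 6.95 and 7.03 in mESC. The dental groups overlapped and both lay below mESC, unlike those of the other response genes, whose mESC means were the lowest. Differences were small: adult minus mESC -0.5 ± 0.08 (adjusted p = 0.00187), embryo minus mESC -0.47 ± 0.08 (adjusted p = 0.00399) and adult minus embryo -0.04 ± 0.08 (adjusted p = 0.863), and none reached the size for a call.

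Some of the other genes on the path from receptor to NF-kappaB were called between dental cells and mESC, and 0 between the ages. Of 21 genes measured in this list, 0 were called between adult and embryo cells by limma. Of all clusters 2.83% were called higher there and 3.59% lower. An unadjusted p under 0.05 was found for 7 of 21, beside 10579 of the 39601 clusters. Some of the list passed the adjusted p but not the size set for a call. The list's median difference was -0.2. In embryo cells against mESC 7 were called higher and 2 lower (median 0.46), beside 4.87% and 6.09% of all clusters, and 12 were not called. In adult cells against mESC again 7 were called higher and 2 lower (median 0.26), beside 6.86% and 10.3%, and 12 were not called. Map3k14, a further kinase of the list, shares its cluster with other symbols and was not counted.

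Furin, the protease that sheds ectodysplasin, averaged 8.07 ± 0.28 (SD, n = 3 in each group) in adult and 8.45 ± 0.29 in embryo samples and 6.25 ± 0.14 in mESC (embryo minus mESC 2.19 ± 0.18, adjusted p = 9.2e-05; adult minus mESC 1.81 ± 0.18, adjusted p = 0.000148). Tab2, an adaptor of the TAK1 kinase downstream of TRAF6, had 12.04 ± 0.11 in adult, 12.08 ± 0.21 in embryo and 10.15 ± 0.14 in mESC samples. The NF-kappaB subunit genes Nfkb1 and Rel were higher in both dental groups, Nfkb1 by 1.93 ± 0.14 in adult and 1.47 ± 0.14 in embryo cells over mESC (adjusted p = 3.04e-05 and 0.000214) and Rel by 1.54 ± 0.2 and 1.43 ± 0.2 (adjusted p = 0.000579 and 0.00134). Ikbkb, the catalytic kinase of the canonical IKK complex, was higher in embryo cells than in mESC by 1.65 ± 0.17 (adjusted p = 0.00025). In the main fit it was also called higher in adult cells than in mESC (1.08 ± 0.17, adjusted p = 0.0014). Birc2, a ubiquitin ligase that restrains the alternative pathway, was lower in adult cells than in mESC (-1.43 ± 0.23, adjusted p = 0.00163). In the main fit Birc2 was also called lower in embryo cells than in mESC (-1.18 ± 0.23, adjusted p = 0.00619). The other lower gene, Rnf31 of the linear ubiquitin ligase, was chosen for mention after its values were seen: its embryo minus mESC value of -1.02 ± 0.21 lost its call without mESC replicate 2 (-0.97) or embryo replicate 2 (-0.96), and its adult minus mESC value of -1.22 ± 0.21 without adult replicate 1 (-0.94), each of which leaves 1 lower gene.

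Few calls were made among the other feedback genes of NF-kappaB. Of 12 measured, such as Nfkbib, Nfkbie, Cyld and Tnip1, 0 were called between adult and embryo cells by limma. Of all clusters 2.83% were called higher there and 3.59% lower. An unadjusted p under 0.05 was found for 1 of 12, beside 10579 of the 39601 clusters. Between adult cells and mESC 0 were called, beside 6.86% of all clusters higher and 10.3% lower. There 6 of 12 had an unadjusted p under 0.05, beside 17614 of the 39601 clusters. In embryo cells against mESC, beside 4.87% of all clusters higher and 6.09% lower, 0 were called higher and 1 lower. This was N4bp1, a regulator that binds ubiquitin, with 10.32 ± 0.42 in embryo samples and 11.47 ± 0.14 in mESC, a difference of -1.15 ± 0.2 (adjusted p = 0.00404) that shrank to -0.94 without embryo replicate 1, which leaves 0. In adult cells against mESC 1 gene was called lower without mESC replicate 1, mESC replicate 3, adult replicate 1 or adult replicate 3. The list's medians were 0.11 for adult minus embryo, -0.03 for embryo minus mESC and 0.1 for adult minus mESC.

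Genes that are known to respond to ectodysplasin in mouse skin appendages or teeth moved in both directions with age. Of 15 measured, 1 was called higher and 3 lower in adult than in embryo cells (median -0.15), beside 2.83% and 3.59% of all clusters. In embryo cells against mESC 7 were called higher and 1 lower (median 0.51), beside 4.87% and 6.09%. In adult cells against mESC 3 were called higher and 1 lower (median -0.08), beside 6.86% and 10.3%. Fgf20 shares its cluster with other genes and was not counted. Shh, the signal of the enamel knot and of the adult cervical loop, and Sostdc1, a secreted antagonist of BMP and Wnt signals, were high in both dental groups.

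The 3 genes lower with age were each highest in embryo cells. Madcam1, an adhesion molecule induced by ectodysplasin in hair placodes, had 5.16, 5.1 and 5.27 in adult samples, 7.75, 6.96 and 6.83 in embryo samples, and 6.05, 5.99 and 5.65 in mESC, and adult minus embryo was -2 ± 0.23 (adjusted p = 0.00109). Ltb, the lymphotoxin beta gene and a ligand that itself feeds NF-kappaB, had 5.8, 5.51 and 5.69 in adult, 8.36, 7.64 and 6.78 in embryo and 6.49, 6.3 and 6.41 in mESC samples (-1.93 ± 0.34, adjusted p = 0.00704). Wnt10b, a Wnt ligand of the placode, had 4.29, 4.26 and 4.13 in adult, 5.48, 5.74 and 5.2 in embryo and 4.22, 4.43 and 4.34 in mESC samples (-1.25 ± 0.13, adjusted p = 0.000744). For each of them every embryo sample exceeded every adult and mESC sample. They were named for being called lower in adult cells, and that choice favours a separation from the adult samples. Any link to Edar, which was also highest in embryo cells, was not tested. Both ends of the Wnt10b range lie near background. The adult means of Madcam1 (5.18) and Ltb (5.67) also lay within 1 log2 unit of the adult control median (4.84), so their differences may be understated.

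Vcam1, an adhesion gene with NF-kappaB sites that is also expressed by mesenchyme and macrophages, went the other way, with 8.52, 7.61 and 8 in adult samples, 5.57, 4.61 and 5.03 in embryo samples, and 5.6, 6.2 and 6.57 in mESC (adult minus embryo 2.97 ± 0.35, adjusted p = 0.0011). The macrophage and mesenchyme lists moved in the same direction (11 of 12 and 5 of 9 called higher in adult than in embryo cells), and their part in the Vcam1 difference was not tested. These 4 calls between the ages held under every alternative setting run for them. The embryo Vcam1 mean (5.07) lay within 1 log2 unit of the embryo control median (5.01), so each of the 4 involves a level near background. Fst, the follistatin gene, had 6.87, 9.24 and 9.3 in adult, 10.74, 10.38 and 10.01 in embryo and 6.69, 6.5 and 6.9 in mESC samples, and its adult minus embryo value of -1.91 did not pass (adjusted p = 0.0762). Its lowest adult sample was again replicate 1.

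Against mESC the largest values of this list were those of Sostdc1 and Shh. Sostdc1 averaged 12.16 ± 0.48 in adult and 13.08 ± 0.49 in embryo samples and 5.64 ± 0.28 in mESC, and Shh 12.46 ± 0.56, 11.46 ± 0.61 and 5.68 ± 0.35. Embryo minus mESC was 7.44 ± 0.31 for Sostdc1 (adjusted p = 2.48e-06) and 5.78 ± 0.38 for Shh (adjusted p = 2.66e-05). Icam1, an adhesion gene that NF-kappaB induces, ran the opposite way with 8.35 ± 0.41 in adult, 8.43 ± 0.57 in embryo and 9.66 ± 0.04 in mESC samples. Its embryo minus mESC value of -1.22 ± 0.29 (adjusted p = 0.0171) lost its call without mESC replicate 3 (-1.2, adjusted p = 0.0522) and without embryo replicate 3 (-0.9, adjusted p = 0.0269), which leaves 0 lower genes, while 2 were lower without mESC replicate 1, adult replicate 1 or embryo replicate 1.

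**Figure D4:**
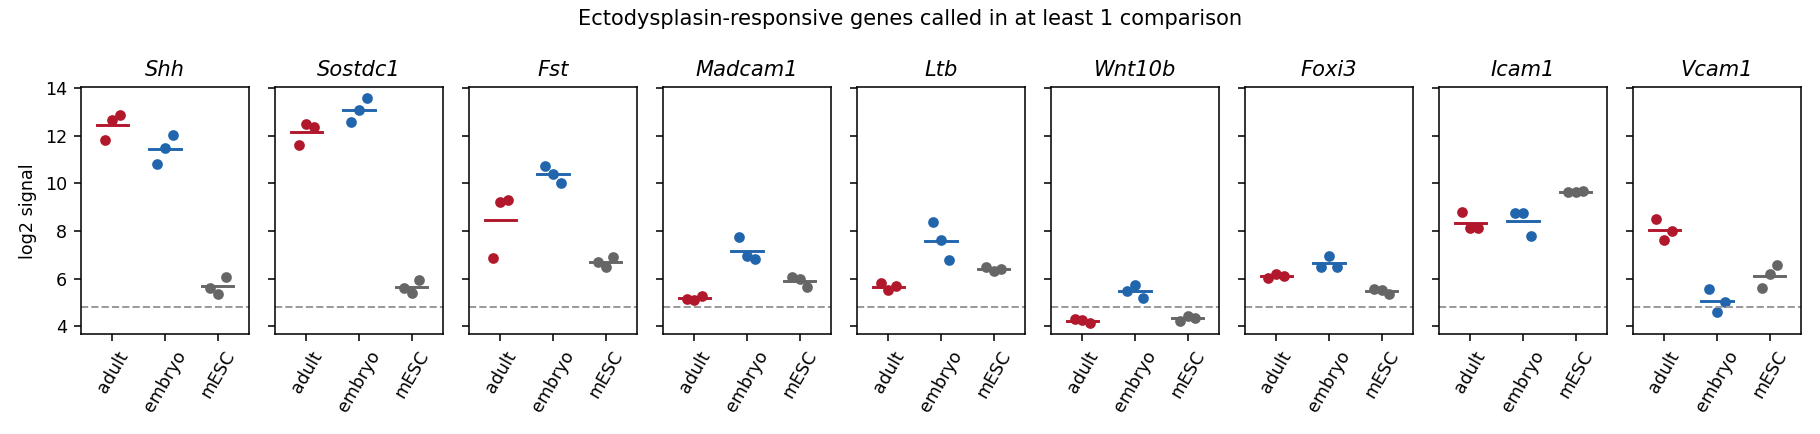
Log2 signal of 9 ectodysplasin-responsive genes, those called in at least 1 comparison, on each array with group means as bars; the dashed line is the median of the negative-control probe sets, 4.81. Madcam1, Ltb and Wnt10b peak in embryo cells, Vcam1 is highest in adult cells, and Shh and Sostdc1 are high in both dental groups.

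The gene profiles most like those of 3 members were found by the root-mean-square difference over the 9 arrays, each profile centred on its own mean, among 18246 named clusters. Closest to Edar were Tspan12, a tetraspanin of the frizzled-4 receptor complex (0.23 log2, Pearson's r = 0.981), D17H6S56E-5 (0.25, r = 0.974), Gdf11, a growth factor of the TGF-beta family (0.28, r = 0.967), H2afy2, which encodes a macroH2A histone (0.29, r = 0.967), and Dbn1, the gene of the actin-binding protein drebrin (0.29, r = 0.966). Gdf11 averaged 7.17 in adult, 8.66 in embryo and 5.98 in mESC samples. The closest to Tnfrsf19 were Slc39a8, a zinc and manganese importer (0.27, r = 0.998), Cnksr2 (0.32), Tshz2 (0.33), Shh (0.35) and the epithelial transcription factor gene Trp63 (0.36). For Tnfaip3 they were Bet1l (0.16), Msrb3 (0.17), Rab43 (0.18), Camk2d (0.18) and Nr4a2 (0.18), with r from 0.937 to 0.966. These correlations rest on the same 9 arrays in 3 groups, and describe likeness only.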

How the data were processed

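For each array and transcript cluster, the values the authors deposited are log2 signals. Affymetrix Expression Console, RMA and Transcriptome Analysis Console are named per the submitters' processing notes, and SST-RMA per the file headers, without versions. The authors also deposited, for each pair of groups, signed linear fold changes (a score with no values between -1 and 1) and, per the file headers, p-values of an analysis of variance with their adjusted values. The annotation's genome build was not given in the sources used here. Among 28783 clusters with 1 symbol, 99.13% overlapped the gene of that name in GRCm38.p6, as did 10 of 10 members. The number of arrays limits the precision.

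Groups and replicate numbers came from the sample titles. Tests used limma (3.58.1, under R 4.3.3) with lmFit and eBayes and no trend, on the deposited log2 signals of all 9 arrays, with a mean per group and 6 residual degrees of freedom, adjusted by Benjamini-Hochberg over 39601 clusters. A call needed an adjusted p under 0.05 together with an absolute difference of at least 1. The fit was tested on simulated data. Tables and plots used data.table (1.17.8), Python 3.11.15, pandas 2.3.3 and matplotlib 3.10.9.

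The members, gene lists, marker lists and tests were chosen with earlier results of these data known. Named are the members, up to 5 called genes per list and comparison by absolute difference, and the 5 nearest profiles of Edar, Tnfrsf19 and Tnfaip3. The uncounted or uncalled list genes that the text gives as examples (Nfkbib, Nfkbie, Cyld, Tnip1, Map3k14, Fgf20, and Fst between the ages) were chosen after their values were seen. The marker lists held epithelium, macrophage and leukocyte, mesenchyme, endothelium, pluripotent cell and immediate early genes. The endothelial list averaged 4.98, 5.19 and 4.96 in adult, 4.67, 4.31 and 4.58 in embryo and 5.27, 5.34 and 5.26 in mESC samples, and the pluripotent list 4.86, 5.22 and 5.26, then 5.38, 5.41 and 5.3, then 12.79, 12.8 and 12.73.

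Alternatives were quantile normalisation, median centring, a variance trend, array weights, other sets of clusters or samples, and blocks for replicate number and day. Day was assumed from a digit string, not named as a date, in the column names of a second deposited summary (9 of 9 columns identical to the main values), which show the group but not the sample. The earlier day held 2 adult arrays and 1 embryo array, and the later day the other adult array, the other 2 embryo arrays and all 3 mESC arrays. In those names 2 embryo columns share a name, and an alternative averaged them.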

Additional observations from a re-analysis of the deposited data

How the results depend on the processing

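The 10 genes were recomputed under 21 alternative settings, 1 of them (without both adult replicate 1 and embryo replicate 3) chosen after seeing the data. Of the results called in a comparison, 231 kept their direction and call and 11 lost the call. Of those not called, 337 stayed so, 8 gained a call and 16 changed sign. Between adult and embryo cells 2 members were called, against 1 with only these arrays, 1 with day as a block, 3 after quantile normalisation, and 1 to 2 when arrays were left out. Where 1 was called, Nfkbiz had lost its call, and after quantile normalisation Tnfrsf19 had gained one. Without adult replicate 1, with or without embryo replicate 3, the count of 2 holds Tnfrsf19 in place of Nfkbiz. Sign changes concern small differences between adult and embryo cells, none of them called: Eda was -0.01 after quantile normalisation, -0.06 after median centring, -0.02 with the same-named embryo columns averaged and -0.1 to 0.14 with arrays left out. Nfkbia was 0.14 after quantile normalisation, 0.05 with array weights, 0.05 with day as a block and -0.08 to 0.06 with arrays left out. With arrays left out, Edaradd ranged from -0.64 to 0.29 and Relb from -0.09 to 0.04, and Nfkbiz in embryo cells minus mESC from -0.07 to 0.54. The causes were not tested. Median centring moved the median of all embryo minus mESC differences by 0.14, and with it Traf6 was called (1.11, adjusted p = 0.0284), as with array weights (1.09, adjusted p = 0.0155). Same-numbered samples were not paired (correlations of their deviations -0.08 to 0.154). With replicate number as a block the members called were 2, 4 and 6 for adult minus embryo, embryo minus mESC and adult minus mESC, as without it, and 2488, 4260 and 6752 clusters were called against 2540, 4343 and 6789. Of the calls of the other listed genes, 940 were kept and 40 lost. With 3 arrays per group, differences under 1 log2 unit and levels near the negative controls are weakly resolved.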

Other observations

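Most of the other receptor genes of the TNF family were not called. Of 16 measured, 2 were called higher and 2 lower in adult than in embryo cells (median 0.21), beside 2.83% and 3.59% of all clusters. In embryo cells against mESC 1 was called higher and 2 lower (median 0.01), beside 4.87% and 6.09%, and in adult cells against mESC 4 higher and 3 lower (median 0.3), beside 6.86% and 10.3%. Ngfr, the low-affinity neurotrophin receptor, had 9.97, 9.64 and 10.44 in adult samples, 7.56, 6.61 and 5.7 in embryo samples, and 6.3, 6.27 and 6.72 in mESC. Adult minus embryo was 3.39 ± 0.44 (adjusted p = 0.00169), with all adult samples above all others. Tnfrsf11b, which encodes osteoprotegerin, a decoy receptor of bone, had 6.19, 6.13 and 6.36 in adult and 4.08, 3.98 and 4.21 in embryo samples (2.14 ± 0.13, adjusted p = 6.9e-05), the embryo values lying below the control median. The mesenchyme list was higher in adult samples too (5 of 9 genes called), and its part in these values was not tested.

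Fas and Tnfrsf10b, a pair of death receptor genes, were called lower in both dental groups than in mESC. Fas averaged 3.73 ± 0.66 in adult, 5.12 ± 0.29 in embryo and 8.6 ± 0.29 in mESC samples, and Tnfrsf10b 6.4 ± 0.25, 7.62 ± 0.06 and 8.97 ± 0.32. The adult Fas mean lies below the control median of the adult arrays (4.84), so the size of its differences may be understated. Adult minus mESC was -4.87 ± 0.33 for Fas (adjusted p = 1.8e-05) and -2.57 ± 0.18 for Tnfrsf10b (adjusted p = 2.05e-05). Adult minus embryo was -1.23 ± 0.18 for Tnfrsf10b (adjusted p = 0.00281). The Fas difference between the ages (-1.39 ± 0.33, adjusted p = 0.0247) involves levels near or below background and lost its call in the fit of these 2 groups alone and without adult replicate 1, adult replicate 3, embryo replicate 2 or embryo replicate 3. The receptor of TNF itself, Tnfrsf1a, had 7.26 ± 0.14 in adult, 6.49 ± 0.16 in embryo and 5.47 ± 0.14 in mESC samples, and adult minus mESC was 1.78 ± 0.11 (adjusted p = 1.45e-05). Its embryo minus mESC value of 1.02 ± 0.11 (adjusted p = 0.000432) lost its call after quantile normalisation (0.86) and without mESC replicate 1 or embryo replicate 3 (0.94 for both).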
